A study of Mus musculus with 3 samples.

Results

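Cell cycle genes were described in mesangial cells sorted from adult mouse glomeruli, with the inhibitors of cyclin-dependent kinases set against the genes of S phase (DNA replication) and M phase (mitosis). The set was a fixed list of 55 genes, and 52 of them had a probe set with exactly 1 gene symbol, among 18687 named genes in all. Where a gene had several such probe sets, the one with the highest mean over the arrays was taken. Cdkn1a, whose probe set carried 2 symbols, and Ccnb1 and Trp53 are not analysed here.

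The study profiled 1 group of 3 samples and had no control population, so no difference between conditions was tested. Every sample was a male adult CD-1 mouse kidney (Theiler stage TS28) carrying Tg(Meis1-EGFP)FO156Gsat, a bacterial artificial chromosome in which Meis1 regulatory sequence drives green fluorescent protein. Cortex was loosened with collagenase, and the glomeruli were caught on a sieve, dissociated with trypsin and sorted for fluorescence. Each sample was 1 kidney with no pooling, and the labels do not tie the kidneys to separate mice, so the spread between samples may be partly technical. The reporter marks whatever cells use the Meis1 sequence, and the labelled source is both the glomerular and the extraglomerular mesangium.

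A cell passes through the cycle when cyclins switch on their kinase partners. In G1, D-type cyclins with Cdk4 or Cdk6, and then E-type cyclins with Cdk2, phosphorylate the retinoblastoma family, the pocket proteins, which otherwise hold E2F factors and keep S phase genes off. Cdk1 with A- and B-type cyclins drives mitosis. The Cdkn1 (Cip/Kip) inhibitors act on cyclin-kinase complexes broadly and the Cdkn2 (INK4) inhibitors on Cdk4 and Cdk6. Mesangial cells rarely divide in the healthy adult glomerulus and can re-enter the cycle after glomerular injury, where the Kip inhibitor p27, the product of Cdkn1b, is a known brake.

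All values are deposited log2 signals, and samples are called 1, 2 and 3. The median signal was 7.53, 7.56 and 7.54 on the 3 arrays, and Pearson's r between arrays over the 35557 probe sets was 0.980, 0.980 and 0.989 for samples 1 and 2, 1 and 3, and 2 and 3. A silent-gene threshold was set on each array at the 95th percentile of 1267 probe sets of chemosensory receptors (olfactory, vomeronasal, trace amine) and of hair keratin-associated proteins, families used mainly by sensory and hair cells. It was 7.48, 7.46 and 7.41 in samples 1, 2 and 3. A gene was called above when it passed the threshold on all 3 arrays. Its margin is the lowest of its 3 differences from the threshold. Probe sets differ in affinity, so signals of different genes are not read as relative amounts. A gene that is not above is not thereby absent. Of 16 mesangial markers 15 were above, all by more than 1. So were 7 of 11 endothelial markers (63.6%) and 3 of 8 podocyte markers (37.5%), against 32.7% of named genes. At the threshold itself 10 of 11 endothelial markers were above (90.9%, against 58.0% of named genes). Eng (mean 11.17), Tek (10.78), Ehd3 (10.42) and Emcn (10.38) were above by more than 2. Pecam1 (7.61), Cdh5 (7.66) and Kdr (7.57) were above by less than 1, and Sox17 was not above. None of 7 proximal tubule, 5 later tubule, 7 macrophage, 5 lymphocyte or 4 erythroid markers was above by more than 1 on every array. At the threshold itself 4, 4, 3, 1 and 1 of them were above, in that order, against 58.0% of named genes. The highest and lowest array differed by more than 0.5 in 1 proximal tubule marker (Kap) and 2 later tubule markers (Umod and Calb1). Umod had 9.51, 9.18 and 8.22 in samples 1, 2 and 3. In sorted bulk RNA, a small share of cells with a strong signal and a weak signal in every cell cannot be told apart, and the part of other cell types in the values below was not tested.

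Promoter windows are shown for 5 members that stand for the classes compared below, an inhibitor gene, a pair of S phase genes and a pair of M phase genes. Each runs from 250 bases before to 50 bases after a transcript start site in RefSeq (GRCm38.p6), 5′ to 3′ on the gene's strand, and positions are counted from that site, which is base 1. Capitals mark the letters TTTGAA (the cell cycle genes homology region, CHR), CCAAT (the CCAAT box), and the E2F-type letters TTTGGCGC, TTTCCCGC, TTTCGCGC and GCGGGAA, on either strand, so that a CCAAT on the opposite strand reads ATTGG. Neighbouring or overlapping matches run together in capitals. The windows lie at chr6:134920151-134920450 on the plus strand for Cdkn1b, chr2:132253131-132253430 on the minus strand for Pcna and chr5:138171834-138172133 on the minus strand for Mcm7. That of Ccnb2 lies at chr9:70421505-70421804 on the minus strand and that of Plk1 at chr7:122159185-122159484 on the plus strand. For Mcm7 the annotated gene extends 228 bases upstream of the site, so that its letters before the site lie within the annotated span; the other 4 sites are at the gene's annotated edge.
Cdkn1b: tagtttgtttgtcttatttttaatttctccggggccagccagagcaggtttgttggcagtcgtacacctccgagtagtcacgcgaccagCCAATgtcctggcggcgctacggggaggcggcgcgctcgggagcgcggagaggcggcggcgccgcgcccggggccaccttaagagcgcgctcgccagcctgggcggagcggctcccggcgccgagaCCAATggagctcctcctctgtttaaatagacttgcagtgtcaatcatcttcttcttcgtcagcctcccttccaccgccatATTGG
Pcna: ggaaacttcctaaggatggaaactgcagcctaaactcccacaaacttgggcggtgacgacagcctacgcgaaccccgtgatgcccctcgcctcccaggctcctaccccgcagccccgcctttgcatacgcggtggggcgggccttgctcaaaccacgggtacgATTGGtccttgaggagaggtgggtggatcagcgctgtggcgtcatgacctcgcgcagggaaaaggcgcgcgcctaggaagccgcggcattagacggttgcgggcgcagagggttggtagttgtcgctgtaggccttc
Mcm7: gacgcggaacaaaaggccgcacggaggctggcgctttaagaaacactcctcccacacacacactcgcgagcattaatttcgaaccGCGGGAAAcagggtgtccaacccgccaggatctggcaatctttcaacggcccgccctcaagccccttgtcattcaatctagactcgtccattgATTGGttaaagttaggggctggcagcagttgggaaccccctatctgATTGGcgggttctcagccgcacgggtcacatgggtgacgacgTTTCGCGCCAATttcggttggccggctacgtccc
Ccnb2: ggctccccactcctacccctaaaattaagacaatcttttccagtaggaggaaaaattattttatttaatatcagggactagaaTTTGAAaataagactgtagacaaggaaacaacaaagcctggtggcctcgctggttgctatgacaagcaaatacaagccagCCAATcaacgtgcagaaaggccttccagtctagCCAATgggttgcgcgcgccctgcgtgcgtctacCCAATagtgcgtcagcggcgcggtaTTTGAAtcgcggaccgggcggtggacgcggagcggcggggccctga
Plk1: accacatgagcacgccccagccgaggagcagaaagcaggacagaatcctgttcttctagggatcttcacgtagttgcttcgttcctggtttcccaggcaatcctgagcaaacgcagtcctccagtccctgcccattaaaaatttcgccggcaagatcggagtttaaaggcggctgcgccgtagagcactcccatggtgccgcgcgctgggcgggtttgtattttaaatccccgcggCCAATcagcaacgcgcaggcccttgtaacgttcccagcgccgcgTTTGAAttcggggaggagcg

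The 2 M phase windows held both a CHR and at least 1 CCAAT box. In Ccnb2 there were 3 CCAAT boxes, starting 87, 54 and 21 bases before the site, and CHR letters starting 167 bases before it and again at base 5 from it. In Plk1 the CCAAT box began 14 bases before the site and the CHR at base 31 from it. Mcm7 held E2F-type letters 165 bases before the site and at base 17 from it, the last running into a CCAAT. The CCAAT boxes of Mcm7 began 72 and 26 bases before the site and at base 24 from it. Pcna held 1 CCAAT box, 87 bases before its site, and Cdkn1b held 3, and neither held the CHR or the E2F-type letters searched.

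A promoter window was found for 41 of the 52 members and for 14551 of the named genes, taking the window farthest upstream where the table gave several. In 14 of the 41 members the site lay 10 or more bases from the gene's annotated edge. CHR letters were in 7 of 10 M phase windows, in 1 of 9 S phase windows and in 1 of 5 inhibitor windows, against 13.6% of all named genes. The CCAAT box was in 9 of 10 M phase, 8 of 9 S phase and 2 of 5 inhibitor windows, against 38.2% of all named genes. A CHR together with a CCAAT box was in the same 7 of 10 M phase windows as the CHR. It was in 1 of 9 S phase windows (Mcm2) and in no inhibitor window, against 5.58% of all named genes. E2F-type letters were in 5 of 9 S phase windows, which were those of Mcm3, Mcm5, Mcm6, Mcm7 and Rrm1, in 1 of 10 M phase windows (Cdk1) and in 2 of 5 inhibitor windows (Cdkn2a and Cdkn2c), against 8.08% of all named genes. The shorter letters GGCGGG were in all 9 S phase and all 10 M phase windows and in 3 of 5 inhibitor windows, against 52.6%. Within the list, CHR letters were in 6 of 23 members above and 6 of 18 members not above.

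As a whole the list lay where genes in general did. Of the 52 members 31 were above the threshold (59.6%), against 58.0% of the 18687 named genes, and the median margin was 0.20 for the members and 0.29 for all named genes. With the threshold raised by 1, 16 members were above (30.8%, against 32.7% of named genes), and with it raised by 2, 6 were (11.5%, against 15.8%). These 6 were Cdkn1b, Pcna, Ccnd1, Cdk4, Ccng1 and Mdm2. These shares lay near the background, but the classes differed in their counts. The G1 cyclins and kinases that were above were all above by more than 1, whereas no M phase gene was.

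**Figure D1:**
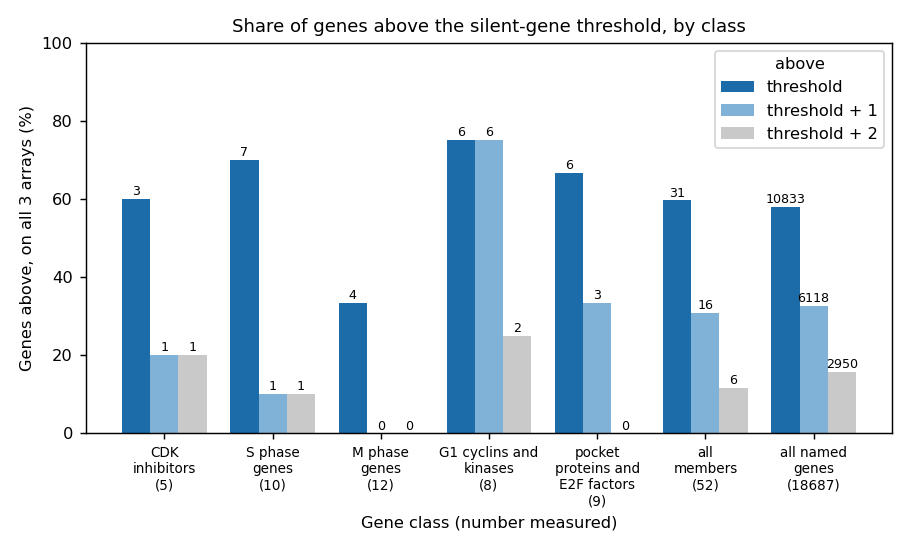
Share of genes that passed the silent-gene threshold in every sample (vertical axis, percent) for 5 classes of cell cycle genes, for all 52 members and for all 18687 named genes, with the number measured in brackets. Dark, light and grey bars stand for the threshold, the threshold + 1 and the threshold + 2 (log2), and the figure over a bar is the number of genes; 6 of 8 G1 genes stay above at + 1, against 0 of 12 M phase genes.

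Among the inhibitors of cyclin-dependent kinases, Cdkn1b stood well above the threshold and the 4 INK4 genes lay close to it on either side. Of 5 measured, 3 were above (60.0%, against 58.0% of named genes) and 1 by more than 1 (20.0%, against 32.7%), with a median margin of 0.12. Cdkn1b had 9.73, 9.75 and 9.50 in samples 1, 2 and 3 (9.66 ± 0.14, SD, n = 3), and its margin was 2.09. All 3 samples were high, with sample 3 the lowest of them. A further Cdkn1b probe set read 9.41 on every array, so both measurements of the gene were above.

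Cdkn2d, for the inhibitor p19, had 8.04, 7.90 and 8.04 (8.0 ± 0.08, n = 3) and was above by 0.44. Cdkn2b, for p15, had 7.60, 7.61 and 7.63 (7.62 ± 0.02, n = 3) and was above by 0.12. Neither would pass a threshold 1 higher. Cdkn2c, for p18, had 7.40, 7.40 and 7.22 (7.34 ± 0.10, n = 3) and was below the threshold in every sample. Cdkn2a had 7.24 in every sample to 2 decimals (SD 0.003, n = 3) and was also below it in all 3. Its locus gives rise to the transcripts for p16 and Arf, for which no separate values are given. Cdkn3 carries an inhibitor's name but encodes a phosphatase that acts on Cdk1 and Cdk2 and is itself made mostly around mitosis. It had 6.64, 6.44 and 6.64 (6.57 ± 0.11, n = 3) and was not above in any sample.

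Cdkn1c, the remaining Kip gene, is no member of the list and belongs to the wider quiescence list and to the podocyte markers. It had 8.84, 8.84 and 8.87 (8.85 ± 0.02, n = 3), above by 1.36 in the lowest sample. Of the 8 podocyte markers 6 were above (75.0%, against 58.0% of named genes), Cdkn1c among them. The log2 signals of the 8 added up to between 67.71 and 68.36 in the 3 samples, a sum that can hide changes in single genes. Cd2ap (11.21 on all 3 arrays) and the transcription factor gene Wt1 (10.15 ± 0.08, n = 3) were above by more than 2. Synpo (8.26 ± 0.16), Plce1 (7.80 ± 0.07, n = 3 each) and Podxl (7.63 on all 3 arrays) were above by less than 1. The slit diaphragm gene Nphs1 (7.35, 7.35 and 7.46) was below the threshold in samples 1 and 2, and Ptpro (6.70, 6.70 and 6.84) in all 3. The part of podocyte RNA in the Cdkn1c signal was not tested.

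S phase genes lay near the threshold apart from Pcna. Of 10 measured, 7 were above (70.0%, against 58.0% of named genes), and only Pcna was above by more than 1 (10.0%, against 32.7%), with a median margin of 0.22. Pcna, the sliding clamp of DNA polymerase that also serves DNA repair, had 11.27, 11.32 and 11.32 (11.30 ± 0.03, n = 3) and a margin of 3.79. It was high in all 3 samples. Its 2 probe sets carried the same values on every array, so they are not separate measurements, and the RefSeq table names the pseudogenes Pcna-ps1 and Pcna-ps2, whose part in the signal was not tested.

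The subunits of the replicative helicase, Mcm2 to Mcm7, divided 4 against 2. Mcm4 had 8.14 on all 3 arrays, and Mcm6 had 7.89, 8.19 and 8.19 (8.09 ± 0.17, n = 3). Mcm2 had 7.79, 7.81 and 7.81 (7.80 ± 0.01, n = 3), and Mcm7 had 7.61, 7.63 and 7.56 (7.60 ± 0.03, n = 3). These 4 were above in every sample, with margins between 0.13 and 0.66. Mcm3 at 6.88 and Mcm5 at 7.20, each the same on the 3 arrays, were not above.

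The genes for nucleotide supply also divided. Rrm1, the large subunit of ribonucleotide reductase, had 8.37, 8.44 and 8.44 (8.42 ± 0.04, n = 3) and was above by 0.89. Rrm2, the small subunit that limits the enzyme's activity in S phase, had 6.93 on all 3 arrays and was not above. Rrm2b, the p53-induced small subunit and no member of the list, had 9.61, 9.61 and 9.66 (9.63 ± 0.03, n = 3), above by more than 2 in each sample. Tyms, for thymidylate synthase, had 7.52, 7.86 and 8.34 (7.91 ± 0.41, n = 3). It barely passed in sample 1, by 0.04, and lay well clear in sample 3.

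M phase genes lay at or below the threshold. Of 12 measured, 4 were above (33.3%, against 58.0% of named genes), none by more than 1, and the median margin was -0.30. The 4 were Cdc25b, a phosphatase that activates Cdk1, at 7.74, 7.98 and 7.74 (7.82 ± 0.14, n = 3), and, each with 1 value on the 3 arrays, the mitotic kinase genes Aurka at 7.78, Aurkb at 7.72 and Cdk1 at 7.55. Their margins ran from 0.07 for Cdk1 to 0.30 for Aurka.

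The other 8 were below the threshold in every sample. Plk1, for polo-like kinase, at 7.40 came nearest to it, with a margin of -0.08, and Ccnb2, for cyclin B2, had 7.30. Mki67, for the proliferation antigen Ki-67, had 7.05, Birc5, for survivin, 6.90, Top2a, for the topoisomerase that untangles sister chromatids, 6.85, and Ccna2, for cyclin A2, 6.70. The mitotic checkpoint kinase gene Bub1 had 5.40. Each of these 7 read the same on the 3 arrays, while Cdc20, the activator of the anaphase-promoting complex, had 6.96, 7.05 and 7.05 (7.02 ± 0.05, n = 3). A lower Top2a probe set read 6.27, 6.15 and 6.27 and was not above either. Wee1, the kinase that holds Cdk1 inactive, had 7.44 on all 3 arrays, a margin of -0.04, and passed the threshold in sample 3 alone.

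**Figure D2:**
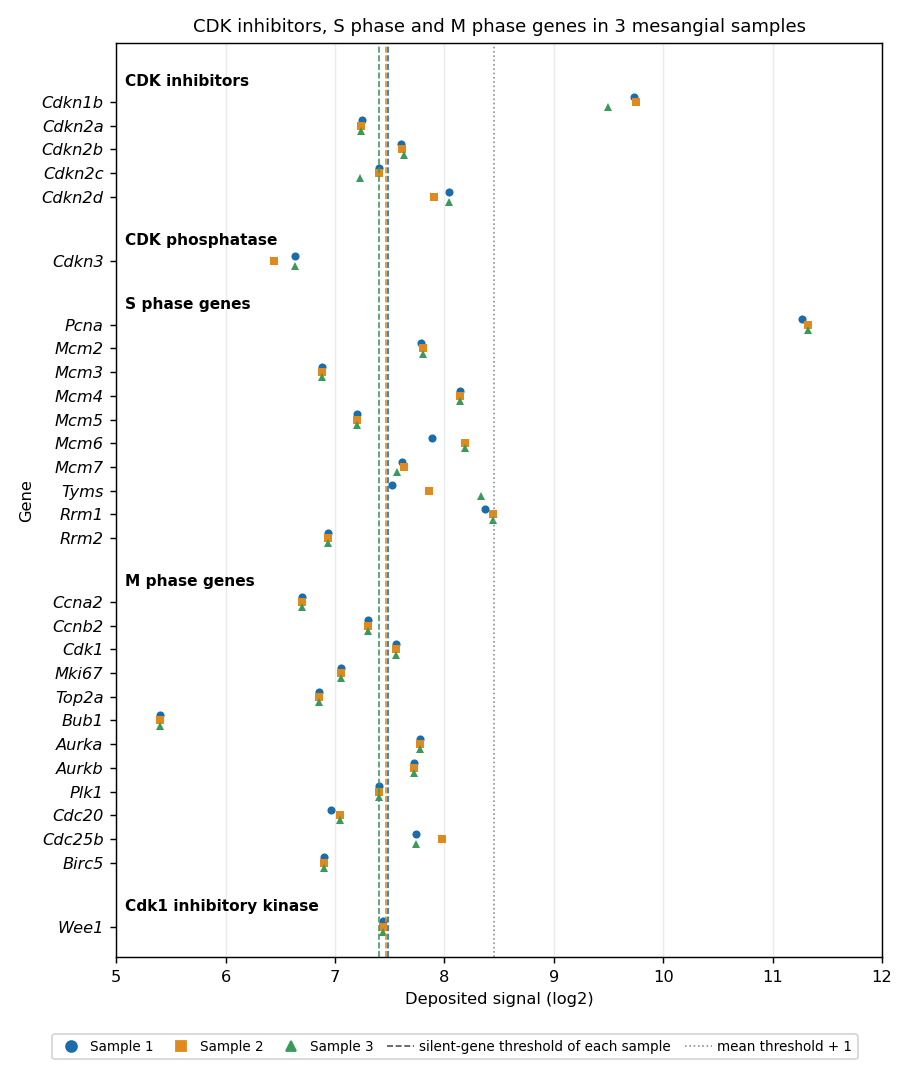
Deposited log2 signal (horizontal axis) of each measured CDK inhibitor, S phase and M phase gene, with Cdkn3 and Wee1, in samples 1, 2 and 3 (points). Dashed lines are the 3 silent-gene thresholds and the dotted line is their mean + 1; Cdkn1b and Pcna lie right of the dotted line in all 3 samples and no M phase gene does.

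Set side by side, the inhibitors, S phase genes and M phase genes were above in 3 of 5, 7 of 10 and 4 of 12 cases, against 58.0% of named genes, with median margins of 0.12, 0.22 and -0.30, against 0.29 for named genes. Raised by 1, the threshold was passed by 1 inhibitor (Cdkn1b), 1 S phase gene (Pcna) and 0 M phase genes, against 32.7% of named genes. The inhibitor share above was thus close to that of genes in general. The shares rest on few genes, and no test was run on them, because genes are not replicates of the cells and the classes were drawn up with results of these data known. Of the members nearest the threshold, Tyms (0.04), Cdk1 (0.07), Cdkn2b (0.12) and Mcm7 (0.13) were just above it, and Wee1 (-0.04), E2f6 (-0.08), Plk1 (-0.08) and E2f2 (-0.16) just below.

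The G1 machinery of D-type cyclins and their kinases was above the threshold throughout. Ccnd1, for cyclin D1, which growth factors induce, had 10.23, 10.58 and 10.62 (10.48 ± 0.21, n = 3), with sample 1 the lowest. Ccnd2 had 9.46, 9.44 and 9.58 (9.49 ± 0.08, n = 3), and Ccnd3 had 8.55 on all 3 arrays. All 3 cyclin D genes were above by more than 1, Ccnd1 by 2.75. Cdk4 had 10.54, 10.48 and 10.43 (10.48 ± 0.06, n = 3), a margin of 3.02, and Cdk6 had 8.98, 8.81 and 8.74 (8.84 ± 0.12, n = 3). Cdk2, the partner of cyclins E and A, had 8.54, 8.57 and 8.54 (8.55 ± 0.02, n = 3) and was above by 1.06.

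The E-type cyclins were not above. Ccne1 had 7.43, 7.21 and 7.29 (7.31 ± 0.11, n = 3), below the threshold in each sample, and Ccne2 had 6.15 on all 3 arrays. In this class of 8 genes, 6 were above the threshold and the same 6 above it raised by 1 (75.0%, against 58.0% and 32.7% of named genes), and the median margin was 1.20. The kinase that activates other cyclin-dependent kinases was above in both of its measured members, with Ccnh, for cyclin H, at 9.36 on all 3 arrays and Cdk7 at 8.51, 8.60 and 8.60 (8.57 ± 0.05, n = 3). Another Cdk7 probe set had 8.28, 8.58 and 8.52 and was also above.

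Among cyclins outside the engine of the cycle, Ccng1, a p53 target, had 10.22, 9.85 and 10.30 (10.12 ± 0.24, n = 3) and was above by 2.39, with sample 2 the lowest. Ccng2, for a cyclin linked to cell cycle exit, had 8.80, 8.90 and 8.67 (8.79 ± 0.11, n = 3) and was above by 1.27. Ccna1, for the cyclin A of the male germ line, had 6.81, 6.81 and 6.66 (6.76 ± 0.08, n = 3) and was not above. Mdm2, for the ligase that degrades p53 and a p53 target itself, had 9.81, 9.94 and 9.93 (9.89 ± 0.07, n = 3) and was above by 2.33.

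All 3 pocket protein genes were above. Rb1 had 9.38, 9.70 and 9.70 (9.60 ± 0.19, n = 3), and Rbl2, for p130, the pocket protein that prevails in resting cells, had 9.18, 8.91 and 9.11 (9.07 ± 0.14, n = 3). Both were above by more than 1. Rbl1, for p107, which is itself raised by E2F in cycling cells, had 8.55, 8.56 and 8.19 (8.43 ± 0.21, n = 3) and was above by 0.79, with sample 3 the lowest.

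Both repressive E2F factors that need pocket proteins were above, and of the 3 activating factors 1 was. The repressive E2f4, the main partner of p130, had 9.30, 8.81 and 8.94 (9.02 ± 0.25, n = 3) and E2f5 had 8.18, 8.18 and 8.15 (8.17 ± 0.02, n = 3), above by 1.35 and 0.70. Of the activating factors, E2f1 at 7.13 and E2f2 at 7.32, each the same on the 3 arrays, were not above, and E2f3 had 7.64, 7.64 and 7.75 (7.68 ± 0.07, n = 3), above by 0.16. A further E2f3 probe set, at 7.36, 7.40 and 7.36, was not above. E2f6, a repressor that acts without pocket proteins, had 7.40, 7.89 and 7.85 (7.72 ± 0.27, n = 3), below the threshold in sample 1 and above it in samples 2 and 3. Of the 9 pocket and E2F genes 6 were above (66.7%, against 58.0% of named genes), 3 of them by more than 1 (33.3%, against 32.7% of named genes), with a median margin of 0.70.

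**Figure D3:**
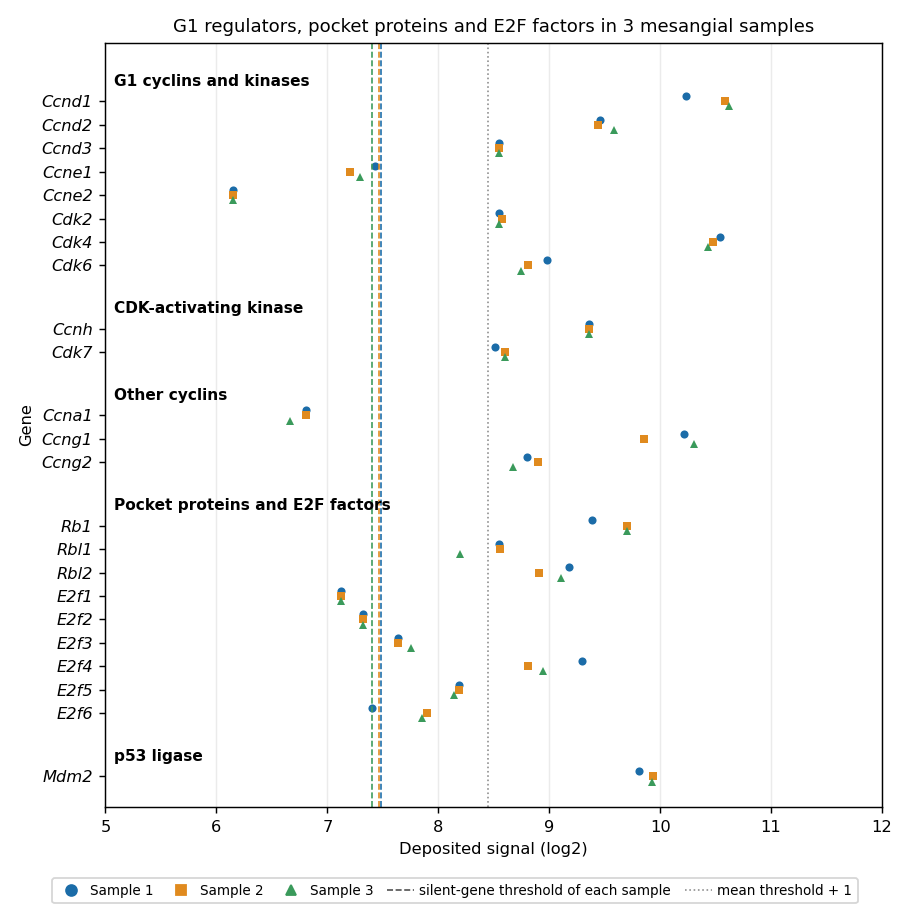
Deposited log2 signal (horizontal axis) of the G1 cyclins and kinases, the CDK-activating kinase, other cyclins, pocket proteins, E2F factors and Mdm2 in samples 1, 2 and 3 (points). Dashed lines are the 3 silent-gene thresholds and the dotted line is their mean + 1; the 3 cyclin D genes, Cdk2, Cdk4 and Cdk6 lie right of the dotted line in every sample and each Ccne1 and Ccne2 point lies left of its own sample's dashed line.

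Between samples large differences were rare among the members, but ranges over 0.3 were more frequent than among named genes. The median range was 0.11 in members above, against 0.03 in named genes above. Only Tyms had a range over 0.5 between its highest and lowest array (0.81), 1 of 52 members against 3.43% of named genes and 1 of 31 members above against 4.34% of named genes above. Ranges over 0.3 were found in 8 members (15.4%, against 8.81%), Tyms, E2f6, E2f4, Ccng1, Ccnd1, Rbl1, Rb1 and Mcm6. All but E2f6 were above the threshold, where ranges over 0.3 are more common (7 of 31 members, against 11.9% of named genes above). Sample 1 was the lowest in Tyms, E2f6, Ccnd1, Rb1 and Mcm6 and the highest in E2f4, sample 2 was the lowest in E2f4 and Ccng1, and sample 3 in Rbl1. Among the 1292 named genes above with such a range, samples 1, 2 and 3 were the lowest in 522, 531 and 239 genes. Sample 1 was the farthest from the middle value in 49.1% of these genes and in 4 of the 7 members above. No S or M phase gene other than Tyms and Mcm6 had a range over 0.3.

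Many values were the same on all 3 arrays, and an SD of 0 then does not stand for a measurement without error. This held for 20 of the 52 members, against 51.1% of named genes. It was more frequent below the threshold, with 6 of 31 members above and 14 of 21 members not above, against 39.4% and 67.3% of named genes on the same sides. Of the M phase genes 10 of 12 were of this kind, and of the S phase genes 4 of 10, so for most M phase genes the arrays give no spread between samples.

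**Figure D4:**
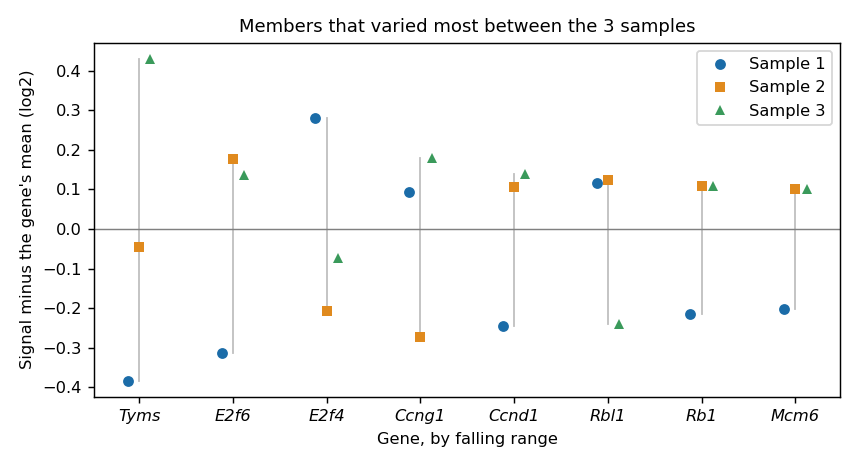
Signal of each sample minus the gene's mean over the 3 samples (vertical axis, log2) for the 8 members with a range over 0.3, ordered by falling range. Points are samples 1, 2 and 3 and grey lines span the range; Tyms has the widest, 0.81, and sample 1 is the lowest point in 5 of the 8 genes.

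Other genes of the cycle were taken from 9 wider lists. Of 26 genes for the spindle, kinetochore and cytokinesis 5 were above (19.2%, against 58.0% of named genes) and 2 by more than 1 (7.69%, against 32.7%), with a median margin of -0.97. The 2 were the checkpoint gene Bub3 at 9.74 ± 0.07 and the centromeric histone gene Cenpa at 8.58 ± 0.04 (SD, n = 3 each). Mad1l1 was above at 8.12 on all 3 arrays. The kinesin gene Kif4 (5.23 ± 0.10) and the kinetochore gene Knl1 (5.78 ± 0.11), were not above (n = 3 each).

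All 14 genes of the anaphase-promoting complex and its regulators were above, 13 by more than 1 (92.9%), against 58.0% and 32.7% of named genes, with a median margin of 1.60. This ubiquitin ligase ends mitosis with Cdc20 and keeps G1 with Fzr1 (Cdh1). Anapc13 had 12.32 ± 0.18, Anapc5 11.13 ± 0.01, Anapc1 10.19 on all 3 arrays and Cdc26 8.76 ± 0.22 (n = 3 each). Fzr1 had 8.34 on all 3 arrays and was above by 0.86, whereas Cdc20, given before, was not above.

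Of 9 genes of SCF ligases and kinase subunits 8 were above (88.9%, against 58.0% of named genes). The core genes Skp1 (11.53 ± 0.04), Rbx1 (11.01 ± 0.02) and Cul1 (10.26 ± 0.01) were above by more than 1 (n = 3 each). Skp2, the subunit that targets p27 for breakdown, had 7.81 on all 3 arrays and was above by 0.33, and Cks2 had 6.87, 6.44 and 7.29 and was not above.

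Of 30 genes for licensing and firing of replication origins 18 were above (60.0%) and 9 by more than 1 (30.0%), close to the 58.0% and 32.7% of named genes. The origin recognition genes Orc3 and Orc4 had 10.28 ± 0.06 and 10.21 ± 0.07 and Gins4 9.77 ± 0.07 (n = 3 each), while Orc1, the subunit that comes and goes with the cycle, had 6.21 on all 3 arrays and was not above. The licensing factor gene Cdt1 (7.37 ± 0.05), its inhibitor Gmnn (6.32 ± 0.04) and the origin kinase gene Cdc7 (6.07 ± 0.03) were not above either (n = 3 each).

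Of 11 genes of the DREAM and MuvB complexes and their partners, which hold cell cycle genes silent in resting cells and activate them in dividing ones, 8 were above (72.7%, against 58.0% of named genes) and 4 by more than 1 (36.4%, against 32.7%). The E2F partner genes Tfdp2 and Tfdp1 had 10.07 and 9.74 on all 3 arrays, and the histone-binding subunit gene Rbbp4 had 9.48 ± 0.14 (n = 3). The activators of mitotic genes were at the threshold or below it. Mybl2 had 7.42 on all 3 arrays and was not above, and Foxm1 had 7.12, 7.85 and 7.56, below the threshold in sample 1 and above it in samples 2 and 3. E2f7, at 7.62, was above by 0.14 and E2f8, at 5.82, was not above, both the same on the 3 arrays.

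Of 20 measured genes linked to quiescence or brakes on growth 18 were above (against 58.0% of named genes) and 16 by more than 1 (80.0%, against 32.7%), with a median margin of 1.30. Hbp1, for a repressor of cell cycle genes, had 10.52 on all 3 arrays, Mxd4, for a MYC antagonist, 10.41 ± 0.01 (n = 3) and Dyrk1a, for a kinase that promotes DREAM assembly, 10.17 on all 3 arrays. Foxo4 at 7.47 and Klf4 at 7.27, each the same on the 3 arrays, were not above. Of 19 p53 targets and regulators 12 were above (63.2%) and 7 by more than 1 (36.8%), near the 58.0% and 32.7% of named genes. Mdm4, for the partner of Mdm2, had 9.98 ± 0.12, Ei24 10.86 ± 0.34 and Gadd45a 9.26 ± 0.05 (n = 3 each), and Btg2 had 9.66 on all 3 arrays. Bbc3, for the death-promoting Puma, at 7.21 and Trp73 at 7.23 were not above. Some of these genes also respond to stress, and the immediate early and stress response is a known effect of tissue dissociation. Among 19 genes of that response 18 were above (94.7%, against 58.0% of named genes) and 7 by more than 1 (36.8%, against 32.7%). Their log2 signals added up to 166.89, 165.35 and 167.78 in samples 1, 2 and 3, a sum that can hide changes in single genes. Their part in these values was not tested.

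**Figure D5:**
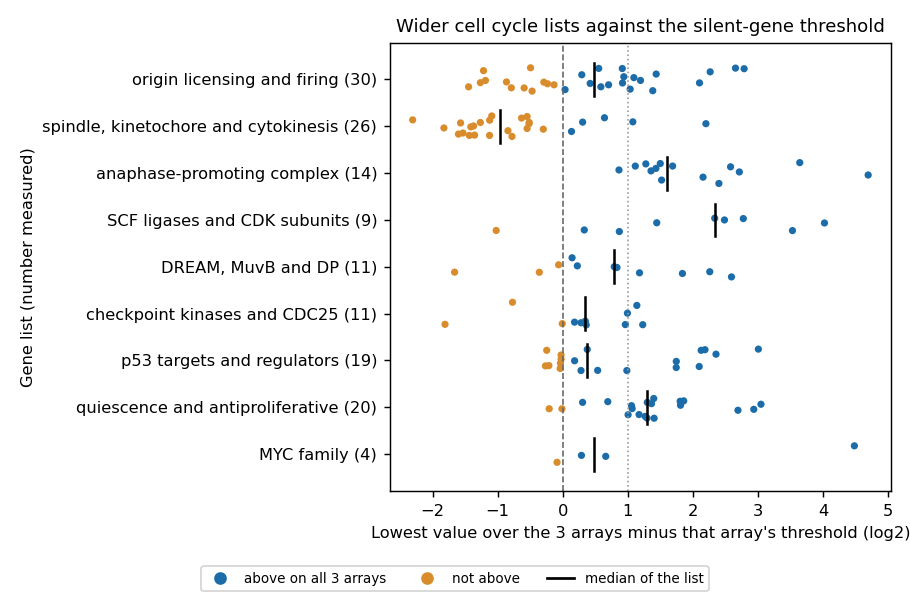
Margin of each gene, its lowest value over the 3 arrays minus that array's silent-gene threshold (horizontal axis, log2), in 9 wider cell cycle lists with the number measured in brackets. Blue points are above on all 3 arrays, orange points are not, black bars are list medians, and the dashed and dotted lines mark 0 and 1; 21 of 26 spindle genes lie left of 0 and all 14 genes of the anaphase-promoting complex right of it.

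The identity of some signals is uncertain. The RefSeq table names pseudogenes after 4 of the 52 members, Pcna, Tyms, Ccnb2 and Ccnd3, and the span of 20 members overlaps that of another annotated gene. Whether a copy or a neighbour adds to a probe set was not tested.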

How the data were processed

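Per the labels' protocols, RNA underwent 1 round of WT-Ovation Pico amplification and biotin labelling, with 1 array for each sample. The deposited log2 signals came from Affymetrix Expression Console, according to the submitters' processing notes. For its version, background correction and summary, the sources used here say nothing. That the base is 2 was judged from the range, which ends at 14.39, and further scaling or centring is unknown. Signals were taken unchanged and no fold was computed. With 3 arrays, precision is limited by their number.

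Of 35557 probe sets 21789 had exactly 1 symbol in the platform annotation, 1621 had several and 12147 were not listed. Symbols were updated by Entrez number with the RefSeq table of GRCm38.p6, which matched 21698. The 1251 genes of the silent families were left out of the 18687 named genes, and 59 of them (4.72%) passed the threshold. Python 3.11.15, pandas 2.3.3 and matplotlib 3.10.9 were used.

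The members, classes, lists and threshold were chosen with earlier results of these data known. All measured members were named, and from each wider list those with the 3 highest and 2 lowest means, an order used only to pick names, and 6 further genes that the rule lists. Rrm2b was chosen after its values were seen. Alternatives varied the threshold, the silent families, the call rule, the samples, the probe set rule and the classes.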

Additional observations from a re-analysis of the deposited data

How the results depend on the processing

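The counts depended on the height of the threshold and on little else. At the 99th percentile of the silent families, 17 members were above (32.7%), against 6594 named genes (35.3%). Among those members were 1 inhibitor, 2 S phase, 0 M phase, 6 G1 and 3 pocket or E2F genes. Raised by 1, the threshold left 16 members (30.8%), against 6118 named genes (32.7%). The members left were 1 inhibitor, 1 S phase, 0 M phase, 6 G1 and 3 pocket or E2F genes, with others outside these classes. Raised by 2, it left 6 members (11.5%), against 2950 named genes (15.8%), with 1 inhibitor, 1 S phase, 0 M phase, 2 G1 and 0 pocket or E2F genes. At the 90th percentile 41 members were above (78.8%), against 12853 named genes (68.8%). They included all 5 inhibitors, 8 of 10 S phase, 6 of 12 M phase, 7 of 8 G1 and all 9 pocket or E2F genes. A range over 0.3 in place of 0.5 took the members that varied to 8. Olfactory receptors alone as the silent families gave 32 members with Wee1 added (61.5%, against 59.9% of named genes). The mean of the arrays gave 32 with E2f6 added (61.5%, against 59.5%), and the mean of a gene's probe sets gave 31 (59.6%, against 57.4%). Without 1 sample, 31 to 32 members were above (59.6% to 61.5%, against 58.1% to 58.9% of named genes), E2f6 being added without sample 1. The counts of inhibitors, S phase, M phase and G1 genes were 3, 7, 4 and 6 without any 1 sample. Counting Cdkn3 as an inhibitor, Ccne1 and Ccne2 as S phase genes, or Cdkn3 and Wee1 as M phase genes added no gene above. Among members that varied, leaving out genes below the threshold, an alternative chosen after seeing the data, left 1. Over all 10 settings, 17 of the 52 members kept their side of the threshold, 6 above and 11 not above. No paired analysis was possible because there was 1 group.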

Other observations

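The checkpoint and MYC families were measured alongside the genes above. Of 11 checkpoint and CDC25 genes 8 were above the threshold (72.7%, against 58.0% of named genes) and 2 by more than 1 (18.2%, against 32.7%). The 2 were Atrip, for the partner of the damage kinase ATR, at 8.71 on all 3 arrays and Pkmyt1, for an inhibitory kinase of Cdk1, at 8.64 ± 0.03 (SD, n = 3). Hus1, for a subunit of the damage-sensing clamp, was above at 8.47 on all 3 arrays. Chek1 at 6.71 and Cdc25c at 5.67, each the same on the 3 arrays, were not above. Of the 4 MYC family genes 3 were above (75.0%, against 58.0% of named genes). Max, the shared partner, had 11.96 ± 0.03, Mycn 8.13 ± 0.01 and Myc 7.83 ± 0.05 (n = 3 each). Myc was above by 0.29, while Mycl at 7.39 on all 3 arrays was not.

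The growth arrest gene Gadd45b, chosen after its values were seen, had 9.27, 8.0 and 8.47 in samples 1, 2 and 3, a range of 1.27, the widest in its list of p53 targets and regulators. The heat shock gene Hspa1a, chosen likewise, had 9.99, 9.12 and 10.13, and sample 2 was the lowest in both genes. The member Ccng1 also had its lowest value in sample 2. By contrast, Ei24 of the same list had 10.48, 11.13 and 10.97, highest in sample 2. The member Mdm2 had 9.81, 9.94 and 9.93, with samples 2 and 3 nearly equal. These few genes, some of them picked for their values, do not give the direction of their lists. Over the 19 measured p53 targets and regulators the log2 signals added up to 161.38, 159.82 and 160.80 in samples 1, 2 and 3. Sample 2 was the lowest in this sum, which can hide changes in single genes.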
